A study of Mus musculus with 65 samples.

Results

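The mouse genome annotation used for these libraries holds 118061 copies of the ERVL family of endogenous retroviruses, out of 3725827 annotated repeat copies in the count table and 3649575 copies of transposable elements. They were chosen by annotation alone, as every row whose class and family were exactly LTR and ERVL, which leaves out the related ERVL-MaLR family with its 454918 copies. The ERVL copies carry 110 subfamily names, and 39672 of them had at least 1 count in some library, while 78389 had none in any. Of the copies, 2758 had enough counts to be tested in at least 1 of 3 experiments, and 99, 98 and 97 subfamilies could be tested in the experiments on Suv39h1 and Ifnar, on MyD88 and Trif, and on guide RNAs.

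The study measured polyadenylated RNA in 65 stranded libraries that fall into 19 groups. In bone marrow-derived dendritic cells from C57BL/6 mice, unstimulated Suv39h1KO, Suv39h1KO IfnarKO and IfnarKO cells were set beside wild-type cells, with 3 libraries each. In a second set of dendritic cells of the same strain, MyD88KO cells and cells labelled TrifKO were measured without LPS and after 2 and 4 hours of LPS at 100 ng/mL, with 3 libraries each, beside wild-type cells with 6, 5 and 6 libraries at those times. RAW264.7 cells, a macrophage line of BALB/c origin that is 1 clone, carried gRNA_1, gRNA_2 or the control guide gRNA_Ctrl and were measured without LPS and after 2 hours of LPS, with 3 libraries each. The labels do not give the targets of the guides or the LPS dose for the RAW264.7 cells, and the titles of those libraries name dendritic cells where their source is given as RAW264.7. Suv39h1 is a methyltransferase that writes the repressive mark H3K9me3, Ifnar is the type I interferon receptor, and MyD88 and Trif are the adaptors through which the LPS receptor TLR4 signals. Replicates carry cohort numbers and no label says that they came from separate animals, so the p-values measure the spread between these libraries, which may be partly technical.

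ERVL elements are retroviruses without an envelope gene that entered mammalian genomes long ago. A full copy has an internal part with the gag and pol genes between a pair of long terminal repeats (LTRs), which act as promoters, and recombination has left most insertions as solitary LTRs. The youngest mouse members are MERVL, annotated as the internal part MERVL-int with its LTR, MT2_Mm. In mouse they are known for their burst of transcription in the 2-cell embryo, driven by the transcription factor Dux, while in later cells histone methylation and the corepressor Trim28 hold many ERVs silent. Because a copy can also lie inside the transcript of a gene, reads assigned to it may belong to that gene's RNA.

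Library depth in genes ranged over 36.9 to 95.3 M counts (M for 1e6; median 54.7 M), and ERVL copies took 43920 to 125802 counts per library (median 69614), which was 2.20 to 3.03% of all transposable element counts (median 2.63%). Levels below are counts per 1e6 gene counts after TMM scaling (CPM), unless another scale is named. Pooled, 9 dendritic cell and macrophage markers summed to 17535 to 30154 CPM in dendritic cell libraries and 5358 to 7648 CPM in RAW264.7 libraries. All 9 had enough counts to be tested in the dendritic cell experiments, and 7 in RAW264.7 cells. A pooled sum cannot tell dendritic cells from macrophages. Granulocyte markers (4 genes) summed to 64.7 to 1129 CPM in dendritic cell libraries and to at most 1.01 CPM in RAW264.7 libraries. In the dendritic cell libraries mast cell and basophil markers (4 genes) summed to 20.7 to 142 CPM, B cell markers to at most 12.6 CPM and T and NK cell markers to at most 0.913 CPM. In bulk RNA, fewer cells of a type and less RNA per cell cannot be told apart.

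The genotype labels were checked against the targeted genes. Suv39h1 averaged 0.216 CPM in Suv39h1KO libraries, against 50.5 CPM in wild type, and 0.225 CPM in Suv39h1KO IfnarKO libraries, against 47.2 CPM in IfnarKO. Myd88 was at 46.2 to 48.6 CPM in MyD88KO libraries without LPS and at 83.3 to 97.6 CPM at 4 hours, against 72.2 to 80.7 and 384 to 461 CPM in wild type, lower without overlap but still counted. The labels do not say which part of Myd88 is deleted, so its summed count does not check that label. Ticam1, the gene for Trif, was at 2.46 and 2.94 CPM in 2 of the 9 libraries labelled TrifKO (replicate 3 at 4 and at 2 hours) and at 29.8 to 50.3 CPM in the other 7, beside 25.02 to 58.4 CPM in wild type. The labels do not say which part of Ticam1 is deleted either. Its summed count therefore does not check that label, though it differed among these 9 libraries. Xist, a transcript of female cells, was both under 1 CPM and over 1000 CPM among the libraries of each of the 3 cohorts labelled TrifKO. These are called the libraries labelled TrifKO. Results that rest on them use all 9, and only some are also given with cohorts 1 and 2 only. Where no such second value is given, the result is not shown to hold in cohorts 1 and 2 alone. Of 60 results for named members recomputed with cohorts 1 and 2 only, 37 held and 23 were weaker. The dendritic cell libraries with LPS also fall into 2 sets by the numbers in their titles. All MyD88KO libraries are in the low-numbered set, all libraries labelled TrifKO are in the high-numbered set, and wild type is in both.

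ERVL transcription was spread over many subfamilies and concentrated in few copies. The 8 subfamilies named MERVL or MT2 held 45.7% of ERVL counts with 39.1% of the copies, and the 7 with the rodent names RMER or RLTR held 24.2% of counts with 26.7% of copies. The older groups were smaller, with 9.66% of counts in 21 MER subfamilies, 8.81% in 55 LTR subfamilies and 4.85% in 10 MLT2 subfamilies. The 6 subfamilies with most counts were MT2B (14.7% of ERVL counts over 13977 copies), RMER15 (10.3%, 18077 copies), MT2A (8.08%, 10140 copies), MERVL_2A-int (6.35%, 3899 copies), ERV3-16A3_I-int (5.38%, 908 copies) and MT2B2 (4.86%, 3655 copies). MERVL-int, the internal part of the youngest family, held 2.81% of ERVL counts over 2600 copies. Solitary and flanking LTRs together took 82.1% of the counts, with 103470 copies, and internal parts 17.9%, with 14591 copies.

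A single copy held 4.71% of all ERVL counts, the 10 highest 13.1%, the 100 highest 35.8% and the 1000 highest 71.8%. The highest was copy 639795 of ERV3-16A3_I-int, an old internal sequence, which gave 87.6% of its subfamily's counts. Copies are named here by their subfamily and the running number that the repeat annotation gives them. The number is not a position, the files give no coordinates for the copies, and no sequence of a copy is printed. The next copies in the LPS experiment were RMER10B copy 3953279 (2.89% of ERVL counts), MT2B copy 2874854 (1.26%), RMER15 copy 4868829 (1.18%) and MT2A copy 4175077 (1.12%). A change in a subfamily's level can therefore be the change of 1 copy, and each subfamily result below was also computed without the 10 copies of that subfamily that had most counts. Those copies were ranked by counts over all libraries of an experiment, so copies high after LPS were more likely to be left out.

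LPS raised the summed ERVL level in wild-type dendritic cells on the gene scale. After 4 hours the total spanned 1371 to 1970 CPM (median 1592) in wild-type libraries, against 844 to 1228 CPM (median 1133) without LPS. All 6 libraries at 4 hours lay above all 6 without LPS. The means were 1650 ± 219 CPM at 4 hours and 1087 ± 138 CPM without LPS (SD, n = 6 each), a log2 difference of 0.60 in the mean level of log2 values, with a two-sided exact permutation p of 0.00216, the smallest that 924 splits allow, and 0.0346 after Benjamini-Hochberg adjustment over the totals tested. At 2 hours wild type had 1035, 1286, 1488, 1644 and 1646 CPM, against the same libraries without LPS, and the groups overlapped. The log2 difference at 2 hours was 0.38 (exact permutation p = 0.0368, adjusted 0.145). Within the 2 library sets the 4-hour difference was 0.59 in the low-numbered and 0.61 in the high-numbered set.

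The totals of the knockouts moved the same way with fewer libraries. MyD88KO cells had 1292, 1284 and 1343 CPM at 4 hours and 1209, 1089 and 1135 CPM at 2 hours, against 924, 958 and 1010 CPM without LPS. The libraries labelled TrifKO had 1438, 1380 and 1311 CPM at 4 hours and 1366, 1312 and 1408 CPM at 2 hours, against 1203, 1186 and 1128 CPM without LPS. Neither genotype had an LPS library within the range of its own libraries without LPS, and the log2 differences were 0.25 and 0.44 in MyD88KO and 0.22 and 0.23 in the libraries labelled TrifKO at 2 and 4 hours. With 3 against 3 libraries an exact permutation test cannot go below 0.1, which each of these reached. In RAW264.7 cells the totals were 1364 ± 73.2 CPM after LPS and 1174 ± 51.5 CPM before with gRNA_Ctrl, 1298 ± 42.3 and 1109 ± 19.2 CPM with gRNA_1, and 1310 ± 5.8 and 1084 ± 33.2 CPM with gRNA_2 (SD, n = 3 each). A fit over 29 repeat families with edgeR's quasi-likelihood test, added after seeing the data, called the ERVL total higher in wild type at 4 hours (adjusted p = 6.26e-07), where 86.2% of all families were called. It gave adjusted p = 0.00557 in MyD88KO at 4 hours, 0.123 in the libraries labelled TrifKO at 4 hours, and 1.92e-05 in RAW264.7 cells with gRNA_Ctrl.

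**Figure D1:**
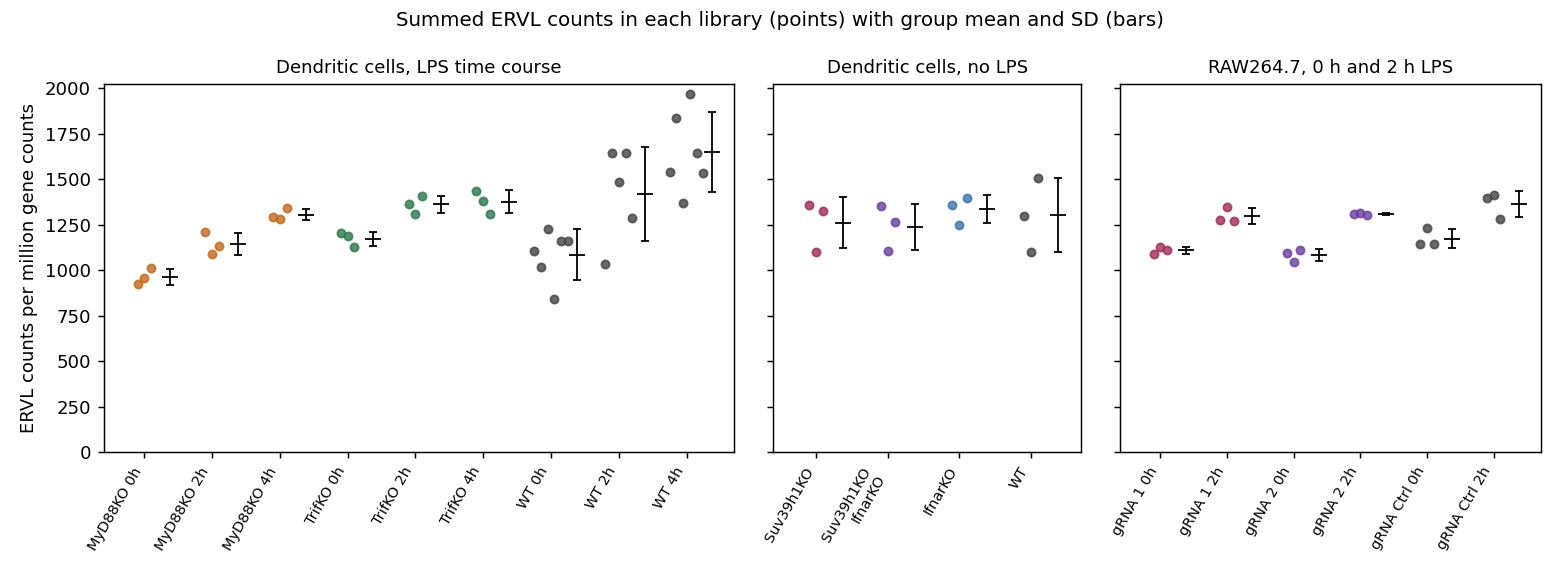
Summed level of all ERVL copies in each library, in counts per 1e6 gene counts after TMM scaling (vertical axis), by genotype and hours of LPS; TrifKO stands for the libraries labelled TrifKO, points are libraries and bars the mean ± SD. The 6 wild-type libraries at 4 hours sit at 1371 to 1970 CPM, all above the 6 without LPS at 844 to 1228 CPM.

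The rise in the ERVL total depended on the scale and was shared with the other repeats. Without the TMM factor the wild-type log2 differences were -0.01 at 2 hours and -0.04 at 4 hours, and scaled to the repeat table they were 0.07 and 0.03. With TMM on genes the median log2 change of all 945 tested subfamilies was 0.28 at 2 hours and 0.50 at 4 hours in wild type, so ERVL moved about as far as the middle of all repeats. Relative to the other LTR families ERVL fell in wild type. The ratio of ERVL to ERVL-MaLR counts was 0.209 at 4 hours and 0.214 at 2 hours, against 0.258 without LPS (log2 -0.30 and -0.27). Its ratio to ERVK was 0.198 at 4 hours, against 0.263 without LPS (log2 -0.41), and its ratio to ERV1 was 0.277, against 0.565 (log2 -1.04). Each ratio was lower in every LPS library than in all libraries without LPS at 4 hours (exact permutation p = 0.00216, adjusted 0.00758). A ratio of families shows unequal change and not which of them changed.

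At the level of subfamilies, 57 of 98 tested ERVL names rose and 8 fell in wild type after 4 hours, with 29 rises and 6 falls at 2 hours. That was 66.3% and 35.7% of the ERVL names, beside 65.6% and 44.2% of all tested subfamilies in the same fits (edgeR's quasi-likelihood test, adjusted p under 0.05), so the share of ERVL names called was close to that of all repeats at 4 hours. The direction of the middle of the distribution turned with the scale. Scaled to the repeat table, 27 ERVL names rose and 31 fell at 4 hours and 17 rose and 22 fell at 2 hours, and 27 of the 57 rises and all 8 falls at 4 hours held under both scalings. With the 10 copies with most counts of each name left out, 16 names were called at 4 hours and 0 at 2 hours. This loss was not set beside that of all subfamilies, so it is not read as particular to ERVL names.

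By group of names, 12 of 18 tested MER names, 7 of 9 MLT2 names, 5 of 7 rodent names, 7 of 8 MERVL and MT2 names and 23 of 48 LTR names rose at 4 hours in wild type. Their median log2 changes were 0.76, 0.91, 0.50, 0.48 and 0.43, beside the median of 0.50 over all subfamilies. The falls were 5 LTR names, 1 MLT2 name, 1 MERVL name and 1 other internal name. The other internal names had a median change of 0.00, with 3 rises and 1 fall among 8.

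The largest rises at 4 hours were in LTR names, 1 MLT2 name and 1 internal part. LTR33A spanned 25.7 to 54.7 CPM (median 38.01) at 4 hours in wild type, against 7.67 to 10.5 CPM (median 8.66) without LPS. No wild-type library at 4 hours overlapped the libraries without LPS, and the log2 fold change was 2.20 (SE 0.21, adjusted p = 1.16e-10). ERV3-16A3_I-int, the internal part described above, spanned 108 to 180 CPM (median 131) at 4 hours, against 29.9 to 39.9 CPM (median 32.8), again without overlap (log2 2.03, SE 0.17, adjusted p = 6.84e-12). LTR84a spanned 2.02 to 2.64 CPM (median 2.36), against 0.361 to 0.896 CPM (median 0.632), with a log2 fold change of 1.87 (SE 0.24, adjusted p = 7.66e-08). Rises of the same kind were seen for LTR86B1 (log2 2.16, 5.49 against 1.22 CPM), LTR82A (1.70, 3.97 against 1.21 CPM) and MLT2B4 (1.49, 21.05 against 7.47 CPM). These 6 kept a rise when the counts were scaled to the repeat table, with log2 values of 1.58 for LTR33A, 1.59 for LTR86B1, 1.43 for ERV3-16A3_I-int, 1.34 for LTR84a, 1.12 for LTR82A and 0.90 for MLT2B4. Without the 10 copies with most counts, the change of LTR33A was 0.15, that of ERV3-16A3_I-int 0.11, that of LTR82A 0.80 and that of MLT2B4 -0.01 on the log2 scale, and none of the 4 was called. No such value is given for LTR84a and LTR86B1, so their rises are not shown to go beyond single copies. In the libraries labelled TrifKO at 4 hours LTR84a copy 687605 averaged 2.28 CPM and its whole subfamily 2.48 CPM.

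The abundant MT2 and rodent LTRs moved less. RMER10A, a rodent LTR, was at 89.3 CPM at 4 hours, against 40.4 CPM without LPS (log2 1.14, adjusted p = 1.23e-08). MT2A was at 119 CPM, against 83.2 CPM (log2 0.51), MT2B2 at 72.8 CPM, against 53.4 CPM (0.45), RMER15 at 155 CPM, against 127 CPM (0.29), and MT2B at 203 CPM, against 169 CPM (0.26). Those 4 were called higher on the gene scale, and the sign of their change turned when they were scaled to the repeat table. There their log2 changes were -0.05 for MT2A, -0.11 for MT2B2, -0.28 for RMER15 and -0.30 for MT2B. A turn of sign is not a call of a fall, and the values of MT2A and MT2B2 were near 0.

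Falls were led by ERVL-B4-int, the internal part of an older ERVL group. It spanned 2.91 to 3.66 CPM (median 3.04) at 4 hours in wild type, against 4.23 to 5.99 CPM (median 5.34) without LPS, with no overlap (log2 -0.74, SE 0.14, adjusted p = 1.89e-05). Scaled to the repeat table its change was -1.31, and without its 10 copies with most counts it was 0.09. MERVL_2A-int, an internal part of older MERVL relatives, was at 55.9 CPM at 4 hours, against 70.7 CPM without LPS (log2 -0.34, adjusted p = 0.00711), and LTR41B was at 1.59 CPM, against 2.47 CPM, with overlap (log2 -0.64). Without its 10 copies with most counts LTR41B was at 0.19 on the log2 scale, and the fall was not called (adjusted p = 0.722).

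MyD88KO cells had fewer subfamily calls at 2 hours than at 4 hours, and the libraries labelled TrifKO had few at either time. In MyD88KO 8 ERVL names rose and 1 fell at 2 hours (9.18% called, beside 7.83% of all subfamilies), and 31 rose and 4 fell at 4 hours (35.7%, beside 36.8%). Scaled to the repeat table the splits in MyD88KO were 8 higher and 5 lower at 2 hours and 13 and 16 at 4 hours. In the libraries labelled TrifKO 5 rose at 2 hours (5.1%, beside 6.24%), and 9 rose and 2 fell at 4 hours (11.2%, beside 10.5%), with 7 calls at 4 hours from cohorts 1 and 2 alone. Scaled to the repeat table they were 6 higher and 3 lower at 2 hours and 9 and 4 at 4 hours. The count at 4 hours was 22 and 23 without MyD88KO replicate 3 at 4 hours and replicate 2 without LPS, and between 4 and 7 without any single library labelled TrifKO.

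The subfamilies that rose most in wild type were not all called in both knockouts, which had fewer libraries. A missing call there does not show a smaller response. In MyD88KO at 4 hours the difference from the wild-type response was called for ERV3-16A3_I-int and MLT2B4, and not for LTR84a or LTR33A. ERV3-16A3_I-int was at 68.8, 77.0 and 65.5 CPM in MyD88KO at 4 hours, against 35.3, 38.8 and 32.3 CPM without LPS (log2 0.99, adjusted p = 0.00121). It was at 103, 105 and 73.6 CPM at 4 hours in the libraries labelled TrifKO, against 31.9, 30.3 and 33.9 CPM (log2 1.55, adjusted p = 2.5e-05). Both sets of LPS libraries lay above their libraries without LPS and below the wild-type median at 4 hours. LTR84a was at 2.48, 2.19 and 2.77 CPM in the libraries labelled TrifKO at 4 hours (log2 2.02, adjusted p = 0.000125), and at 0.913, 0.304 and 0.648 CPM in MyD88KO at 4 hours, where it was not called (log2 0.41, adjusted p = 0.398). At 2 hours LTR84a had risen in MyD88KO to 1.50, 1.63 and 1.23 CPM (log2 1.63). MLT2B4 rose in the libraries labelled TrifKO (12.6, 11.8 and 13.5 CPM at 4 hours, log2 0.71, adjusted p = 0.0174), and its value in MyD88KO at 4 hours was 8.10, 7.83 and 9.33 CPM (log2 0.26, adjusted p = 0.311). LTR86B1 rose in both, with log2 1.50 in MyD88KO and 1.18 in the libraries labelled TrifKO at 4 hours. LTR33A also rose in both, with log2 1.21 in MyD88KO and 1.30 in the libraries labelled TrifKO at 4 hours. Once the 10 copies with most counts were left out, these values of LTR33A were 0.29 and -0.29, and those of ERV3-16A3_I-int 0.11 and 0.20, and none was called.

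**Figure D2:**
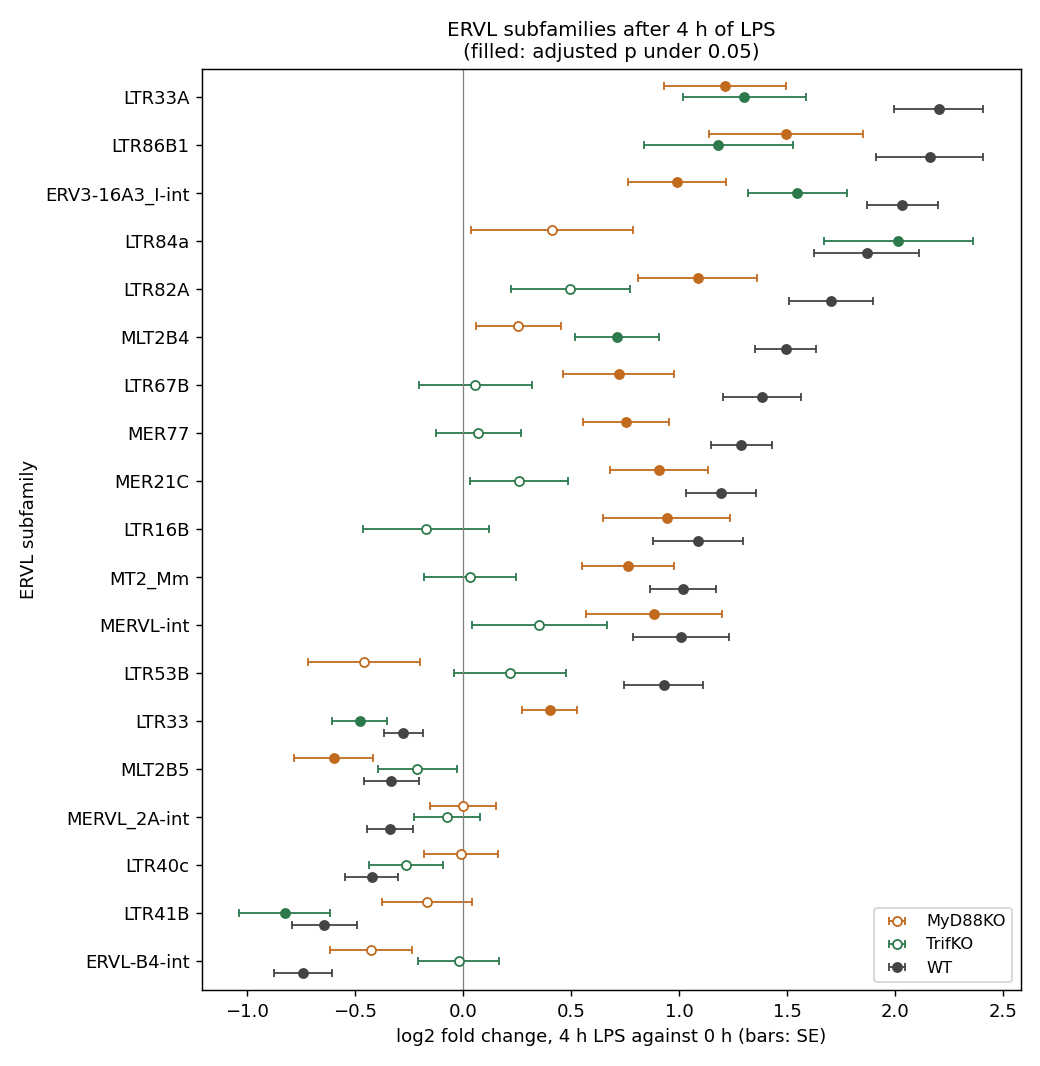
Log2 fold change at 4 hours of LPS against no LPS (horizontal axis) of named ERVL subfamilies in MyD88KO, in the libraries labelled TrifKO and in wild type, with bars of 1 standard error; filled points have an adjusted p under 0.05. LTR33A and ERV3-16A3_I-int are filled in all 3 genotypes, and LTR84a and MLT2B4 are open in MyD88KO.

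MERVL-int and its LTR MT2_Mm, the youngest ERVL, rose in wild-type dendritic cells. MERVL-int spanned 41.4 to 91.1 CPM (median 60.1) at 4 hours, against 15.8 to 41.9 CPM (median 33.97) without LPS, and it had 23.7, 39.7, 68.8, 69.1 and 72.5 CPM at 2 hours. The groups overlapped, the lowest library at 4 hours being just under the highest without LPS. The log2 fold change was 1.01 at 4 hours (SE 0.22, adjusted p = 0.00022) and 0.81 at 2 hours (SE 0.23, adjusted p = 0.00479). MT2_Mm spanned 28.1 to 58.4 CPM (median 46.03) at 4 hours, against 18.03 to 25.2 CPM (median 22.8) without LPS, with no overlap (log2 1.02, SE 0.15, adjusted p = 8.55e-07), and at 2 hours its log2 fold change was 0.63 (adjusted p = 0.00168). On the scale of the repeat table both were still called at 4 hours, with log2 0.44 for MERVL-int and 0.43 for MT2_Mm. Unlike most names, both also kept their call at 4 hours without their 10 copies with most counts, with log2 0.61 for MERVL-int (adjusted p = 0.00891) and 0.82 for MT2_Mm (adjusted p = 0.000204), while their 2-hour calls were lost (0.41 and 0.40, adjusted p = 0.273 and 0.222). At 2 hours the rise was called in the high-numbered library set (0.92 for MERVL-int, 0.77 for MT2_Mm) and not in the low-numbered set (0.35, adjusted p = 0.417, and 0.31, adjusted p = 0.291), while at 4 hours both sets gave 0.72 or more.

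In MyD88KO both rose by 4 hours. MERVL-int was at 36.6, 37.8 and 52.0 CPM at 4 hours and 31.5, 29.3 and 30.3 CPM at 2 hours, against 20.1, 25.6 and 22.7 CPM without LPS. Each LPS library lay above each library without LPS, and the log2 fold change at 4 hours was 0.88 (SE 0.31, adjusted p = 0.0277). That call was lost without MyD88KO replicate 3 at 4 hours (adjusted p = 0.127), or without replicate 1 or 2 of the cells without LPS (adjusted p = 0.0604 and 0.0986). MT2_Mm was at 38.2, 26.7 and 33.8 CPM at 4 hours, against 17.7, 20.8 and 19.6 CPM (log2 0.76, adjusted p = 0.0058). Both calls were lost without the 10 copies with most counts (0.54 and 0.58, adjusted p = 0.344 and 0.289). Neither was called in the libraries labelled TrifKO. MERVL-int was at 42.99, 39.6 and 41.6 CPM at 4 hours, against 34.97, 32.3 and 30.01 CPM (log2 0.35, adjusted p = 0.525), and MT2_Mm was at 22.6, 20.8 and 21.5 CPM, against 21.03, 22.3 and 20.2 CPM (log2 0.03, adjusted p = 0.951). The 4-hour response of MT2_Mm was smaller in the libraries labelled TrifKO than in wild type by 0.99 on the log2 scale (SE 0.26, adjusted p = 0.00795). With cohorts 1 and 2 alone that difference was -0.94 (adjusted p = 0.0621), without the 10 copies with most counts it was -0.55 (adjusted p = 0.854), and for MERVL-int it was -0.65 with all libraries (adjusted p = 0.267).

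**Figure D3:**
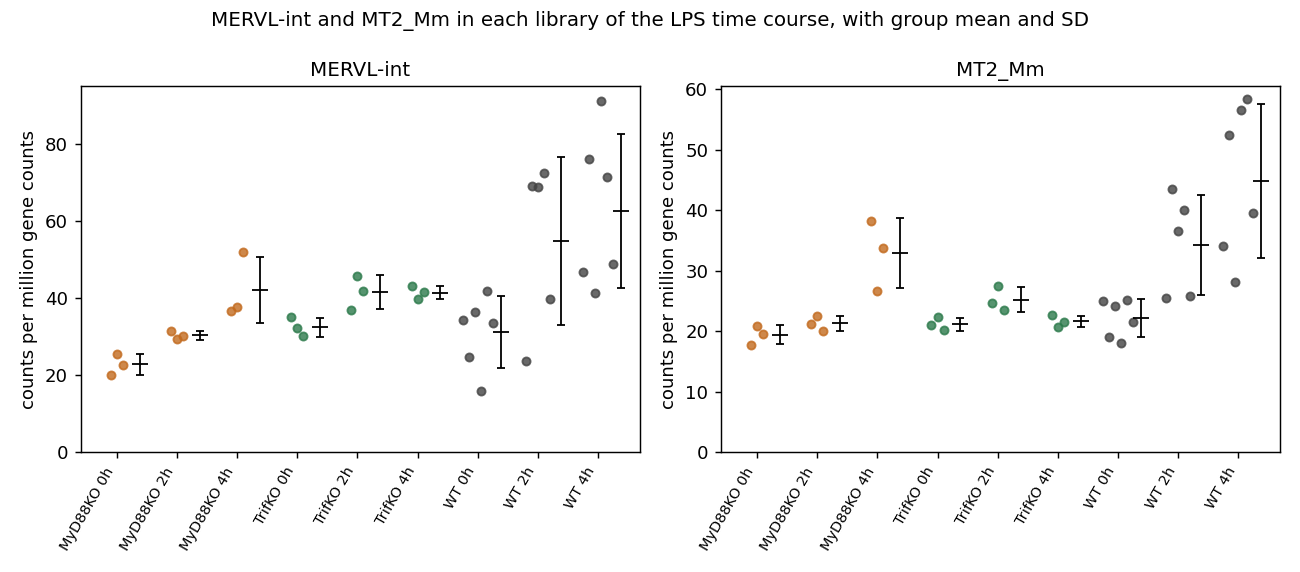
Level of MERVL-int and of MT2_Mm in each library, in counts per 1e6 gene counts after TMM scaling (vertical axes), by group; TrifKO stands for the libraries labelled TrifKO, points are libraries and bars the mean ± SD. MT2_Mm at 4 hours in wild type spans 28.1 to 58.4 CPM, and in the libraries labelled TrifKO 20.8 to 22.6 CPM.

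Genes of the 2-cell embryo that accompany MERVL there had few counts or none in these cells, apart from 3. Of 37 genes on that list 26 were in the gene table, and the other 11 were not measured here. The Zscan4, Tdpoz, Tcstv1 and Pramel6 genes, 12 in all, had 0 counts in every library. Another 11 had counts but too few to be tested, led by Eif1ad8 with 161 counts in 30 libraries, Usp17le with 76 in 25 and Usp17ld with 64 in 21, and none of the 11 was above 0.362 CPM in any library. Among them Duxf3, a copy of the Dux gene, had 6 counts over all 65 libraries. The 3 tested genes are also expressed outside the embryo. At 4 hours in wild type Arg2, a mitochondrial arginase, was at 15.4 CPM, against 4.93 CPM without LPS (log2 1.64), Sp110, an interferon-inducible nuclear body protein, was at 443 CPM, against 71.9 CPM (2.62), and the zinc finger gene Zfp760 was at 3.85 CPM, against 6.02 CPM (-0.65).

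Of 36 tested genes that silence ERVs, 9 rose and 15 fell in wild type at 4 hours, when 65.1% of all tested genes were called. Among those that fell were Setdb1, the H3K9 methyltransferase that works with Trim28 (32.7 against 51.6 CPM, log2 -0.66), Trim28 itself (58.2 against 107 CPM, -0.87), the DNA methyltransferase Dnmt1 (31.7 against 96.8 CPM, -1.61) and the heterochromatin protein gene Cbx3 (9.19 against 28.8 CPM, -1.64). Among those that rose were Daxx, a histone H3.3 chaperone (442 against 35.005 CPM, log2 3.66), the microrchidia ATPase gene Morc3 (230 against 65.5 CPM, 1.81) and Resf1, a Setdb1 partner (376 against 120 CPM, 1.65). In MyD88KO 12 rose and 8 fell at 4 hours (34.1% of all genes called), and in the libraries labelled TrifKO 4 rose and 2 fell (25.9%). In RAW264.7 cells with gRNA_Ctrl 6 rose and 20 fell (51.6%). The part of these genes in the ERVL levels was not tested.

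Single copies moved in both directions in wild type. Of 1901 tested ERVL copies, 528 rose and 318 fell at 4 hours (44.5% called, beside 42.3% of all tested repeat copies), and 365 rose and 253 fell at 2 hours (32.5%, beside 31.1%). With the repeat table as the scale, the 4-hour split was 365 higher and 612 lower and the 2-hour split 301 and 410. From the low-numbered library set alone 497 copies were called at 4 hours and 174 at 2 hours. The MERVL and MT2 copies gave 237 rises and 165 falls among 917 tested at 4 hours, the rodent copies 152 and 81 among 501, the MER copies 43 and 25 among 206, the LTR copies 55 and 18 among 161 and the MLT2 copies 32 and 14 among 76. In MyD88KO 266 copies rose and 54 fell at 4 hours (16.8%, beside 15.5%) and 117 and 24 at 2 hours (7.42%, beside 7.14%). In the libraries labelled TrifKO 72 rose and 32 fell at 4 hours (5.47%, beside 5.33%) and 74 and 36 at 2 hours (5.79%, beside 5.21%), with 52 and 50 calls from cohorts 1 and 2 alone. Relative to the repeat table the splits at 4 and 2 hours were 188 and 137 and 99 and 42 in MyD88KO, and 67 and 53 and 76 and 58 in the libraries labelled TrifKO. Left out singly, several libraries moved these counts by more than 1.5 times. In MyD88KO at 2 hours the count was 84 without replicate 1 at 2 hours, and 82 and 81 without replicates 2 and 3 of the cells without LPS, and at 4 hours it was 208 without replicate 3 at 4 hours. In the libraries labelled TrifKO it was 68 and 54 at 2 hours without replicates 1 and 2 at that time and 55, 52 and 62 without replicates 1, 2 and 3 of the cells without LPS. At 4 hours there it was 58 and 66 without replicates 1 and 2 at that time and 54, 54 and 65 without those of the cells without LPS.

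The copy with most counts, ERV3-16A3_I-int copy 639795, rose in every genotype. It was at 175, 168, 124, 129, 103 and 104 CPM in wild type at 4 hours, against 21.1 to 31.5 CPM without LPS. In MyD88KO it was at 63.3, 71.6 and 59.9 CPM at 4 hours, against 24.4, 27.7 and 32.0 CPM, and in the libraries labelled TrifKO at 96.0, 99.2 and 67.3 CPM, against 26.1, 22.97 and 22.2 CPM. In each genotype the LPS libraries lay above those without LPS, with wild type highest. The gene whose level was most like it over the 35 libraries was Plek, which encodes pleckstrin, a substrate of protein kinase C in leukocytes (Pearson r = 0.999). In RAW264.7 cells the same pair had r = 0.999 over 18 libraries. A correlation of this kind is a description over libraries that share LPS, genotype and depth, and it was the highest among all tested genes by construction.

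Copies of the rodent LTRs showed larger folds. RMER10A copy 721714 was at 20.1, 19.6, 17.98, 17.6, 22.6 and 22.4 CPM in wild type at 4 hours, against 0.431 to 0.903 CPM without LPS. In MyD88KO it was at 17.9, 14.01 and 15.1 CPM at 4 hours, against 0.332, 0.444 and 0.300 CPM (log2 5.45, SE 0.42, adjusted p = 7.26e-12). In the libraries labelled TrifKO it was at 1.66, 1.93 and 0.372 CPM at 4 hours, against 0.557, 0.428 and 0.804 CPM, and those groups overlapped. The most alike gene over the 35 libraries was Tgtp2, an interferon-inducible GTPase (r = 0.991). RMER10B copy 1774348 had the same order, at 1.77, 1.67 and 1.34 CPM in MyD88KO at 4 hours and 0.374, 0.359 and 0.0620 CPM in the libraries labelled TrifKO, beside 1.42 to 2.22 CPM in wild type. Its most alike gene was Ifit1, an interferon-induced antiviral protein (r = 0.955). Other named RMER10 copies were most like other genes, such as Vamp1 (RMER10A copy 1294713, r = 0.898) and Kcnk6 (RMER10B copy 3953279, r = 0.970).

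MT2 LTRs gave copies of the same kind. MT2B1 copy 1316764 was at 5.47, 5.89, 3.95, 4.43, 5.12 and 5.91 CPM in wild type at 4 hours, against 0.323 to 0.518 CPM without LPS. It was at 3.86, 2.52 and 3.65 CPM in MyD88KO at 4 hours, against 0.5263, 0.249 and 0.382 CPM, and at 0.232, 0.151 and 0.0207 CPM in the libraries labelled TrifKO, against 0.356, 0.321 and 0.459 CPM. The libraries labelled TrifKO were thus all below their own libraries without LPS, where wild type and MyD88KO were above. MT2A copy 869915 was at 2.97 to 6.93 CPM in wild type at 4 hours, against 0.0538 to 0.366 CPM, at 3.25, 3.01 and 1.65 CPM in MyD88KO and at 0.944, 0.946 and 0.227 CPM in the libraries labelled TrifKO. Its most alike gene was Tnfsf10, which encodes the death ligand TRAIL (r = 0.974). Other MT2 copies were most like Cgas, the cytosolic DNA sensor (MT2A copy 3516502, r = 0.954), and Mx2, an interferon-induced GTPase (MT2B1 copy 323614, r = 0.951). MT2B1 copy 1316764 was most like BC147527 (r = 0.991). Further named MT2 copies were most like other genes. Among them were E2f8 (MT2B2 copy 3019703, r = 0.867), Triobp (MT2B1 copy 1671811, r = 0.957) and Adora2a (MT2B copy 3595052, r = 0.956). No 1 kind of gene was therefore common to the MT2 copies.

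A different order was seen in the values of LTR84a copy 687605 and LTR33A copy 4689719. The knockouts were not tested against each other, and between them genotype and library set cannot be told apart. For neither copy was the 4-hour difference between MyD88KO and wild type called. The LTR84a copy was at 2.28, 1.91 and 2.65 CPM in the libraries labelled TrifKO at 4 hours and at 0.751, 0.195 and 0.511 CPM in MyD88KO, beside 1.83 to 2.50 CPM in wild type. Its most alike gene was Kdm6b, a histone H3K27 demethylase (r = 0.937). This copy gave most of the LTR84a level in the libraries labelled TrifKO at 4 hours, so copy and subfamily are not separate results. LTR33A copy 4689719 was at 9.67, 8.58, 1.88, 3.21, 3.50 and 2.29 CPM in wild type at 4 hours, against 0.0401 to 0.135 CPM, at 4.67, 3.90 and 1.07 CPM in the libraries labelled TrifKO and at 1.83, 0.998 and 0.727 CPM in MyD88KO. Its wild-type libraries of the high-numbered set, replicates 1 and 2, stood above the other 4. For this copy MyD88KO and the libraries labelled TrifKO overlapped at 4 hours. LTR33A copy 4689719 was most like Mapkapk2, a kinase downstream of p38 (r = 0.975). MLT2B4 copy 1805251, most like the costimulatory gene Cd80 (r = 0.984), was at 8.18 to 17.4 CPM in wild type at 4 hours, against 1.21 to 2.69 CPM. It was at 2.50, 2.25 and 3.97 CPM in MyD88KO at 4 hours and at 5.24, 5.58 and 7.38 CPM in the libraries labelled TrifKO.

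Several copies with at most 1 count without LPS were clearly counted after it. Copies this low without LPS could be tested only through libraries of other groups, so the filter itself favoured rises among them. MER74B copy 277448 had 402 counts over the 6 wild-type libraries at 4 hours, against 1 count without LPS, and was at 1.01 to 3.04 CPM at 4 hours (log2 8.40, adjusted p = 7.49e-15). Against a floor of 3 counts over the group, RMER15-int copy 2197378 was at least 187-fold higher at 4 hours and MER74B copy 277449 at least 119-fold higher. RMER15-int copy 2197378 was uneven, with 3.13, 3.58, 0.167, 0.804, 0.188 and 0.448 CPM at 4 hours in wild type and 0 in all 6 libraries without LPS.

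**Figure D4:**
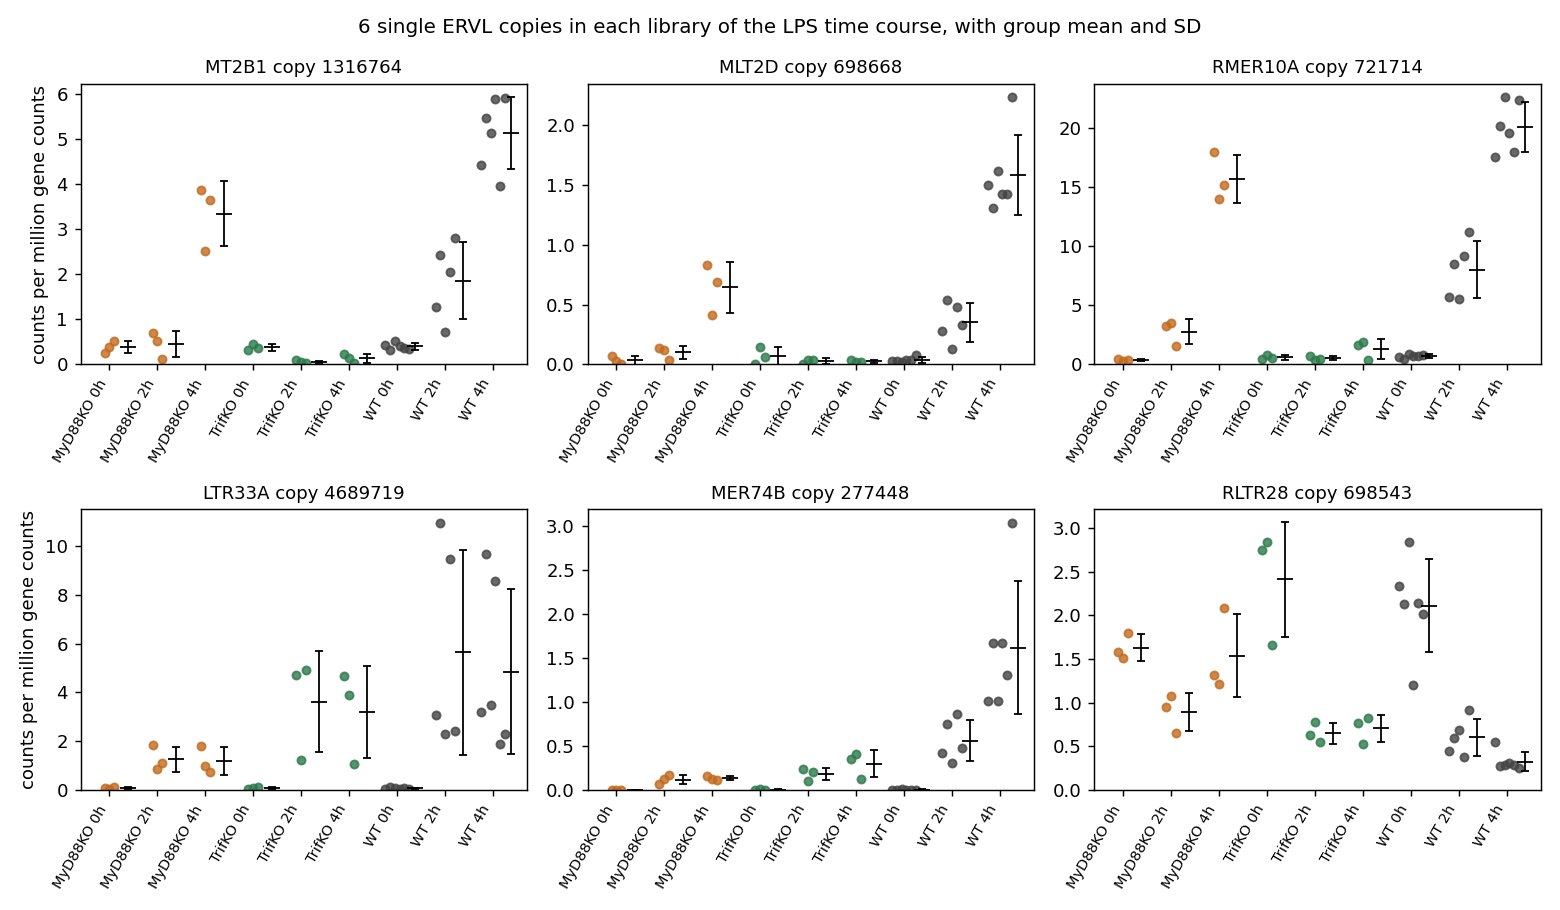
Level of 6 single ERVL copies in each library, in counts per 1e6 gene counts after TMM scaling (vertical axes), by genotype and hours of LPS; TrifKO stands for the libraries labelled TrifKO, points are libraries and bars the mean ± SD. RMER10A copy 721714 reaches 17.6 to 22.6 CPM in wild type and 14.01 to 17.9 CPM in MyD88KO at 4 hours, and at most 1.93 CPM in the libraries labelled TrifKO.

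Falls of single copies were smaller in level. RMER10A copy 1294713 averaged 0.0164 CPM at 4 hours in wild type, against 0.608 CPM without LPS (log2 -5.08, SE 0.64, adjusted p = 3.45e-08), and RMER10A copy 316437 averaged 0.106 CPM, against 1.22 CPM (log2 -3.47, SE 0.34, adjusted p = 1.24e-10). MT2B2 copies 3358721, 3944469 and 3262628 fell by 2.98, 2.89 and 2.81 on the log2 scale, and within the high-numbered library set alone the first was at -2.69 and not called (adjusted p = 0.0969). ERVL-B4-int copy 3291112, which held 21.4% of its subfamily's counts, was at 0.283 to 0.357 CPM at 4 hours in wild type, against 0.668 to 1.36 CPM without LPS. It was at 0.5684, 0.672 and 0.491 CPM in MyD88KO at 4 hours, against 0.970, 1.23 and 0.927 CPM, and at 0.623, 0.624 and 0.868 CPM in the libraries labelled TrifKO, against 0.604, 0.677 and 1.41 CPM. The groups did not overlap in wild type and MyD88KO and overlapped in the libraries labelled TrifKO.

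The gene most like ERVL-B4-int copy 3291112 over the 35 libraries was Fv1 (r = 0.948), a mouse restriction factor against murine leukaemia virus that derives from the gag gene of an ERVL-related element. Fv1 averaged 0.901 CPM in wild type at 4 hours, against 2.11 CPM without LPS (log2 -1.23, adjusted p = 2.17e-08), and 1.19 CPM in MyD88KO at 4 hours, against 2.54 CPM (log2 -1.09, adjusted p = 0.000127). Fv1 averaged 1.67 CPM in the libraries labelled TrifKO, against 2.07 CPM, and was not called (log2 -0.31, adjusted p = 0.28). Its 4-hour response differed between the libraries labelled TrifKO and wild type by 0.92 on the log2 scale (adjusted p = 0.00963).

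Copies with neighbouring numbers in the annotation had similar profiles. Pairs of tested ERVL copies at most 1 number apart (115 pairs) had a median Pearson r of 0.695 over the libraries, and of 0.480 after group means were removed. Pairs at most 10 numbers apart (497 pairs) had 0.615 and 0.398, and all 1805950 pairs had 0.0653 and 0.0701. The pairs share libraries and depth, and the values are a description.

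The calls of wild type and of the knockouts came from separate libraries and could be compared as lists. Of the copies that rose at 4 hours in MyD88KO, 233 also rose in wild type, which was 87.6% of the MyD88KO list and 44.1% of the wild-type list, beside 88.5% and 41.1% over all repeat copies. Of the copies that rose in the libraries labelled TrifKO, 68 also rose in wild type, which was 94.4% of that list and 12.9% of the wild-type list, beside 95.4% and 13.2%. For subfamilies the shared rises were 28 in MyD88KO (90.3% and 49.1%, beside 96.3% and 56.1% over all subfamilies) and 9 in the libraries labelled TrifKO (100% and 15.8%, beside 97.5% and 13.8%).

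Differences of the responses themselves were called for few members. Between the libraries labelled TrifKO and wild type, 2 ERVL subfamilies had a larger and 11 a smaller log2 change at 4 hours (13.3% called, beside 16.6% of all subfamilies), and 1 was called at 2 hours (beside 2.33%). On the scale of the repeat table the 4-hour split was 7 larger and 9 smaller. With cohorts 1 and 2 alone 5 were called at 4 hours and 0 at 2 hours. MER77 had the smallest adjusted p of these, with a response lower by 1.22 in the libraries labelled TrifKO (SE 0.24, adjusted p = 0.000639), and LTR67B was lower by 1.33 (SE 0.32, adjusted p = 0.00365). Both were still called with cohorts 1 and 2 alone, at -1.09 for MER77 and -1.46 for LTR67B. No ERVL subfamily difference was called without the 10 copies with most counts of each name, and the values became 0.44 for MER77 and -0.53 for LTR67B. LTR67B averaged 2.05 CPM in the libraries labelled TrifKO at 4 hours, against 1.97 CPM without LPS, and 5.45 CPM in wild type, against 2.09 CPM.

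Among copies, 4 had a larger and 37 a smaller response at 4 hours in the libraries labelled TrifKO than in wild type (2.16%, beside 2.31%), and 1 and 16 at 2 hours (0.894%, beside 1.05%). With the repeat table as the scale, the 4-hour split was 17 larger and 29 smaller. With cohorts 1 and 2 alone 16 and 5 were called. At 4 hours the count was 27 and 23 without replicates 1 and 3 of the libraries labelled TrifKO without LPS, and at 2 hours it was 11, 10 and 8 without their replicates 2 and 3 without LPS and replicate 3 at 2 hours, and 32 without wild-type replicate 1 of the low-numbered set at 2 hours. RMER10A copy 721714 (-3.73 at 2 hours), MT2B1 copy 1316764 (-5.13 at 4 hours), MLT2D copy 698668 (-6.73 at 4 hours) and MLT2D copy 698628 (-3.80 at 4 hours) were called with all libraries and with cohorts 1 and 2 alone, where they were -3.25, -4.49, -5.56 and -3.57. MLT2D copy 698668 was at 0.0356, 0.0189 and 0.0207 CPM in the libraries labelled TrifKO at 4 hours and at 1.31 to 2.24 CPM in wild type.

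Between MyD88KO and wild type, 1 ERVL subfamily had a larger and 3 a smaller response at 4 hours (4.08%, beside 2.75%), and none was called at 2 hours (edgeR, beside 0.106%; 8 at an unadjusted p under 0.05, and 0 by DESeq2). Relative to the repeat table the split was 2 and 4. The called names were LTR33 (0.68), ERV3-16A3_I-int (-1.04), MLT2B4 (-1.24) and LTR53B (-1.39). None was called without the 10 copies with most counts of each name, where the values were -0.0903 for LTR33, 0.00724 for ERV3-16A3_I-int and -0.17 for MLT2B4, and LTR53B had too few counts to be tested. Set against the wild-type libraries of the same low-numbered set, none of the 4 was called, with values of 0.54 (adjusted p = 0.228), -0.77 (0.169), -0.89 (0.116) and -1.16 (0.132). Among copies 2 had a larger and 1 a smaller response (0.158%, beside 0.131%), and none was called against the same set or at 2 hours (edgeR, beside 0.00154% of all copies; 146 at an unadjusted p under 0.05, and 3 by DESeq2). RLTR28 copy 698543 was at 1.32, 1.21 and 2.08 CPM in MyD88KO at 4 hours, against 1.80, 1.58 and 1.51 CPM without LPS, and at 0.259 to 0.556 CPM in wild type at 4 hours, against 1.20 to 2.84 CPM. It overlapped its level without LPS in MyD88KO and not in wild type, and the difference of the responses was 2.59 (adjusted p = 0.000873), or 2.29 against the same set (adjusted p = 0.075).

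Few ERVL calls were made between the genotypes of this experiment without LPS. No subfamily was called by edgeR in MyD88KO or in the libraries labelled TrifKO against wild type (0% of all subfamilies in both; 7 and 4 at an unadjusted p under 0.05, and 0 by DESeq2 in both). The totals differed by -0.16 and 0.12 on the log2 scale (exact permutation p = 0.202 and 0.393). Among copies, 1 was higher and 2 were lower in MyD88KO (0.158%, beside 0.149% of all copies). The higher one, MT2A copy 210740, was at 1.37, 1.24 and 0.859 CPM in MyD88KO without LPS and had 0 counts in every wild-type library and every library labelled TrifKO, a fold of at least 156 against a floor of 3 counts over the group. It was at 0.631 CPM or more in all 9 MyD88KO libraries, and its most alike gene was Tfcp2l1, a transcription factor of pluripotent and epithelial cells (r = 0.983). The called copies of all families within 20 annotation numbers of it ran over the numbers 210724 to 210745, a stretch whose ends were set by these calls. They were 19 copies, all higher in MyD88KO, out of the 97 called in that comparison. A copy at 0 in the other groups, as MT2A copy 210740 was, could be tested only through the MyD88KO libraries.

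In Suv39h1KO the ERVL total did not differ from wild type beyond the spread of the libraries, and a small number of copies were higher. The total was at 1359, 1102 and 1328 CPM in Suv39h1KO, against 1301, 1099 and 1509 CPM in wild type, and the groups overlapped (log2 -0.04, exact permutation p = 1 with a smallest possible p of 0.1). It averaged 1241 ± 126 CPM in Suv39h1KO IfnarKO, against 1335 ± 77.1 CPM in IfnarKO (SD, n = 3 each; log2 -0.11, exact permutation p = 0.4). MERVL-int averaged 37.6 ± 6.89 CPM in Suv39h1KO, against 35.96 ± 9.94 CPM in wild type.

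Of 99 tested subfamilies 1 was called in Suv39h1KO (1.01%, beside 0.53% of all subfamilies). LTR67B, an old LTR, was at 6.33, 5.02 and 5.60 CPM in Suv39h1KO, against 2.00, 1.71 and 2.06 CPM in wild type, with no overlap (log2 1.55, SE 0.19, adjusted p = 0.000102). Without its 10 copies with most counts the change was 0.53 and not called (adjusted p = 0.947). In Suv39h1KO IfnarKO it was at 3.21, 2.76 and 3.51 CPM, against 2.03, 1.79 and 2.42 CPM in IfnarKO, which also did not overlap but was not called (log2 0.60, adjusted p = 0.507), and there no ERVL subfamily was called (edgeR, beside 0.636% of all subfamilies; 4 at an unadjusted p under 0.05, and 0 by DESeq2). In this experiment samples of 1 cohort deviated together, and with the replicate block LTR67B was called in both comparisons (1.55 and 0.60, the second with adjusted p = 0.0251), with 3 and 1 ERVL subfamilies called.

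Of 1769 tested ERVL copies, 7 were called in Suv39h1KO, all higher (0.396%, beside 0.243% of all copies), and 5 in Suv39h1KO IfnarKO against IfnarKO, also all higher (0.283%, beside 0.226%). With the replicate block 9 were higher and 3 lower in Suv39h1KO and 10 higher and 6 lower in Suv39h1KO IfnarKO. All 7 and all 5 copies stayed called there, and MERVL-int copies 149717 (adjusted p = 0.0035) and 3488710 (adjusted p = 0.00166) were also called in Suv39h1KO IfnarKO. The 5 were all among the 7, which was 100% and 71.4% of the lists. Over all repeat copies 85 rises were shared, 81% and 75.2% of the lists. LTR67B copy 149321 was at 0.573, 0.765 and 0.644 CPM in Suv39h1KO, against 0.0134, 0.0240 and 0 CPM in wild type, or 163 counts against 3 (log2 5.33). LTR67B copy 149620 was at 1.20, 1.35 and 1.74 CPM, against 0.0936, 0.0480 and 0.116 CPM (log2 4.10). The other LTR67B copies were 149936 at 0.521, 0.377 and 0.534 CPM, against 0.0134, 0.0360 and 0.0931 CPM (3.47), and 149202 at 1.29, 1.32 and 1.44 CPM, against 0.307, 0.156 and 0.163 CPM (2.67). None of these 4 overlapped between groups. Copies 149321, 149620 and 149936 had under 10 counts in each wild-type and IfnarKO library. They could be tested only through the libraries without Suv39h1, so the filter favoured their rise.

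In Suv39h1KO IfnarKO the same 4 LTR67B copies were lower than in Suv39h1KO and above IfnarKO. LTR67B copy 149620 was at 0.390, 0.696 and 0.5259 CPM in Suv39h1KO IfnarKO, against 0.0323, 0.0243 and 0.0201 CPM in IfnarKO, and copy 149321 was at 0.223, 0.245 and 0.199 CPM, against 0, 0.0122 and 0 CPM. Copy 149936 was at 0.185, 0.109 and 0.210 CPM, against 0, 0.0122 and 0 CPM, and copy 149202 at 0.371, 0.627 and 0.643 CPM, against 0.210, 0.122 and 0.120 CPM. The difference between the Suv39h1 effects with and without Ifnar was tested for all copies, and no ERVL copy was called (edgeR, 0% of all copies; 23 ERVL copies at an unadjusted p under 0.05, and 0 by DESeq2).

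MERVL itself gave 3 of the 7 copies in Suv39h1KO. MT2_Mm copy 149714 was at 0.907, 1.92 and 1.29 CPM in Suv39h1KO, against 0.201, 0.228 and 0.419 CPM in wild type (log2 2.33), and at 0.724, 1.09 and 1.15 CPM in Suv39h1KO IfnarKO, against 0.275, 0.292 and 0.120 CPM in IfnarKO. MERVL-int copy 149717 was at 0.678, 1.36 and 0.691 CPM, against 0.120, 0.336 and 0.256 CPM in wild type (log2 1.93). That call was lost without Suv39h1KO replicate 2 (adjusted p = 0.541) and without wild-type replicate 1, 2 or 3 (0.237, 0.0617 and 0.153). MERVL-int copy 3488710 was at 0.0938, 0.445 and 0.518 CPM, against 0.0134, 0.0360 and 0 CPM (log2 4.03, adjusted p = 0.0239). This copy too could be tested only through the libraries without Suv39h1. In Suv39h1KO IfnarKO the calls of MT2_Mm copy 149714 and LTR67B copy 149202 were lost without replicate 2 or 3 of that group or any IfnarKO library (adjusted p up to 0.118 for the first and up to 0.331 for the second), and the count of called copies was 2 without any IfnarKO library.

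All but 1 of the 7 copies had annotation numbers between 149202 and 149936, and these copies set the ends of the stretch. In it 61 of 123 tested repeat copies of all families rose in Suv39h1KO, which was 49.6% of the stretch and 42.4% of the 144 copies called in that comparison. In Suv39h1KO IfnarKO 49 of the 123 rose, 36.6% of the 134 called. The stretch held 14 tested ERVL copies, of which 6 rose in Suv39h1KO and 5 in Suv39h1KO IfnarKO. Copies in the same stretch that were not called included MERVL-int copy 149447, the MERVL-int copy with most counts, at 7.84 CPM in Suv39h1KO and 7.10 CPM in wild type, and MT2_Mm copy 149446 at 5.66 and 4.61 CPM. The gene most like LTR67B copy 149321 over the 12 libraries was Cdc42bpa, a kinase of the cytoskeleton (r = 0.980). In Suv39h1KO Cdc42bpa rose by 0.71 on the log2 scale and the copy by 5.33. C130026I21Rik, nearly as alike (r = 0.958), rose by 6.58, at 284 CPM against 2.98 CPM in wild type. The cause of the rises in this stretch was not tested.

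**Figure D5:**
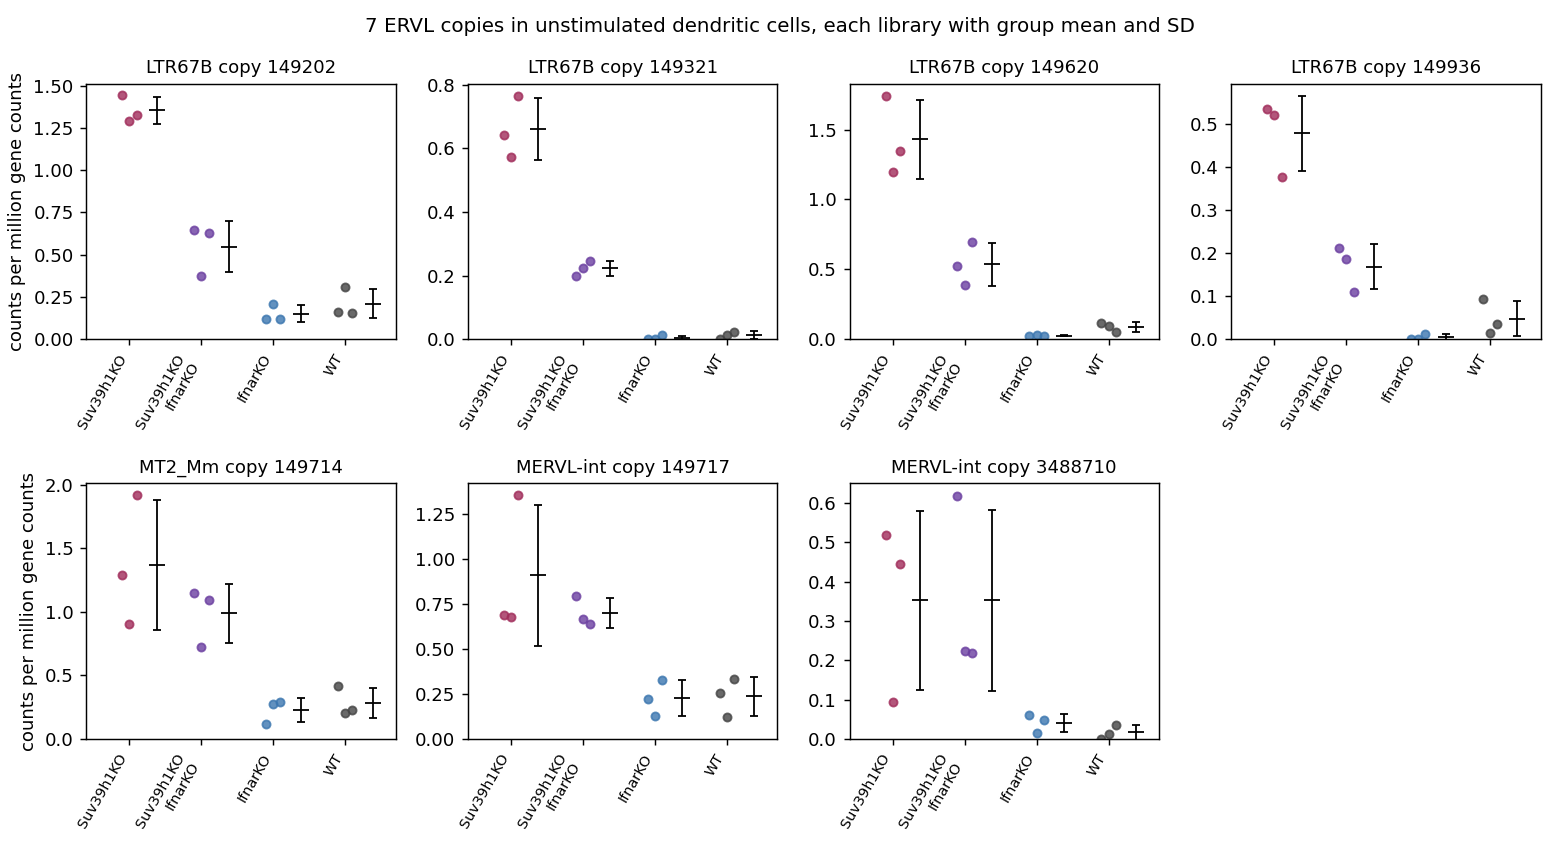
Level of the 7 ERVL copies that rose in Suv39h1KO, in counts per 1e6 gene counts after TMM scaling (vertical axes), in Suv39h1KO, Suv39h1KO IfnarKO, IfnarKO and wild-type cells without LPS; points are libraries and bars the mean ± SD. LTR67B copy 149620 is at 1.20 to 1.74 CPM in Suv39h1KO and at 0.0480 to 0.116 CPM in wild type.

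In IfnarKO against wild type no ERVL subfamily was called (edgeR, 0% of all subfamilies; 0 at an unadjusted p under 0.05, and 0 by DESeq2), and 1 ERVL copy was (0.0565%, beside 0.0304% of all copies). MER21C copy 3532114 was at 0, 0.0122 and 0 CPM in IfnarKO, against 0.294, 0.504 and 0.372 CPM in wild type. It had 0 CPM in Suv39h1KO IfnarKO and 0.2502, 0.251 and 0.769 CPM in Suv39h1KO, so the libraries without Ifnar were all at or near 0. MER21C copy 3532114 could therefore be tested only through the libraries with Ifnar. Its most alike genes were Rtp4, an interferon-induced protein, over the 12 libraries of this experiment (r = 0.987) and Oas2, an interferon-induced sensor of double-stranded RNA, over the 35 libraries with LPS (r = 0.974).

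In RAW264.7 cells 2 hours of LPS raised 30 ERVL subfamilies and lowered 7 with gRNA_Ctrl (38.1%, beside 56.8% of all subfamilies), with 38 and 6 for gRNA_1 (45.4%, beside 58.2%) and 39 and 4 for gRNA_2 (44.3%, beside 61.6%). The share of ERVL names called was below that of all repeats with each guide, and the difference was not tested. On the scale of the repeat table the splits were 15 higher and 23 lower, 19 and 24, and 17 and 29. LTR84a was at 6.41, 4.63 and 5.30 CPM after LPS with gRNA_Ctrl, against 0.708, 0.450 and 0.728 CPM before, with no overlap (log2 3.09, SE 0.18, adjusted p = 4.55e-19). MLT2C1 was at 8.54, 6.73 and 6.61 CPM, against 1.40, 1.56 and 1.48 CPM (log2 2.30, adjusted p = 1.35e-18). ERV3-16A3_I-int averaged 98.2 CPM, against 49.2 CPM (log2 1.00), with log2 1.03 for gRNA_1 and 1.18 for gRNA_2. Without its 10 copies with most counts those changes of ERV3-16A3_I-int were -0.34, -0.21 and -0.54. LTR101_Mam fell by 0.79, 0.91 and 0.93 on the log2 scale with gRNA_Ctrl, gRNA_1 and gRNA_2.

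MERVL-int rose with each guide and was lower before LPS with both tested guides. After LPS it was at 41.1, 39.98 and 32.4 CPM with gRNA_Ctrl, against 25.8, 28.0 and 24.3 CPM before (log2 0.54, adjusted p = 3.62e-07), and the log2 change was 0.59 with gRNA_1 and 0.88 with gRNA_2. Without its 10 copies with most counts the changes were 0.59, 0.62 and 0.91 and all 3 were called. MT2_Mm, its LTR, was called with gRNA_Ctrl (log2 0.20, adjusted p = 0.0374) and with gRNA_2 (0.30, adjusted p = 0.00171), and not with gRNA_1 (0.16, adjusted p = 0.0882). With the repeat table as the scale, the MT2_Mm changes were -0.0946 with gRNA_Ctrl and -0.0492 with gRNA_2. The gRNA_Ctrl call was lost without any single library of its 6 (adjusted p between 0.0525 and 0.113), and the gRNA_2 call without gRNA_2 replicate 3 at 2 hours (0.0782).

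Before LPS MERVL-int was at 19.9, 17.8 and 19.1 CPM with gRNA_2, against 25.8, 28.0 and 24.3 CPM with gRNA_Ctrl, with no overlap (log2 -0.46, adjusted p = 0.000304). With gRNA_1 it was at 19.7, 23.4 and 20.1 CPM, also below every gRNA_Ctrl library (log2 -0.30, adjusted p = 0.0378). Neither was called without the 10 copies with most counts, with -0.34 for gRNA_2 (adjusted p = 0.0537) and -0.24 for gRNA_1 (adjusted p = 0.293). On the scale of the repeat table the gRNA_2 call held (-0.35) and the gRNA_1 call did not (-0.23, adjusted p = 0.089). The gRNA_1 call was lost without gRNA_1 replicate 1 or 3 (adjusted p = 0.278 and 0.221) and without gRNA_Ctrl replicate 1 or 2 (0.0887 and 0.381). It was the only ERVL subfamily called with gRNA_1 in the fit with genes as the scale (1.03%, beside 2.35% of all subfamilies), and with gRNA_2 4 were called, all lower (4.12%, beside 7.04%). RMER10A was at 48.9 CPM with gRNA_2, against 58.6 CPM with gRNA_Ctrl (log2 -0.26, adjusted p = 0.0104), a call lost without replicate 2 of either group (adjusted p = 0.105 for gRNA_2 and 0.157 for gRNA_Ctrl).

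Single ERVL copies in RAW264.7 cells gave 294 rises and 127 falls with gRNA_Ctrl among 1798 tested (23.4%, beside 20.8% of all copies), 303 and 119 with gRNA_1 (23.5%, beside 21.5%) and 289 and 119 with gRNA_2 (22.7%, beside 22.1%). Relative to the repeat table the splits were 214 and 241, 217 and 217, and 215 and 228. MT2B2 copy 3019703 was at 5.75, 5.04 and 5.93 CPM after LPS with gRNA_Ctrl, against 0.0147, 0 and 0 CPM before, or 832 counts against 1 (log2 9.37, SE 0.39, adjusted p = 6.13e-21). It was at 2.71, 2.31 and 3.72 CPM after LPS with gRNA_1 and at 4.21, 4.02 and 4.16 CPM with gRNA_2. Its most alike gene over the 18 libraries was Smox, spermine oxidase (r = 0.997). RMER15 copy 2394198 was at 1.10, 1.16 and 0.722 CPM after LPS with gRNA_Ctrl and at 0 in all libraries before LPS, at least 53-fold higher against a floor of 3 counts over the group, and was most like Jag1, a Notch ligand (r = 0.995). MLT2C1 copy 4561838 averaged 1.39 CPM, against 0.00736 CPM (log2 7.36). These copies, at or near 0 before LPS, could be tested only through libraries with LPS, so the filter favoured their rise. RMER15 copy 4868829, most like the bacterial RNA receptor gene Tlr13 (r = 0.990), fell to 0.687, 0.638 and 1.58 CPM after LPS, against 3.16, 2.46 and 4.95 CPM before (log2 -1.85).

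Between guides without LPS, 1 ERVL copy was called with gRNA_1 (0.0556%, beside 0.246% of all copies) and 7 with gRNA_2 (0.389%, beside 0.421%). MLT2B4 copy 1915795 was lower with both. It was at 0.163, 0.254 and 0.391 CPM with gRNA_1 (log2 -2.05) and at 0.431, 0.478 and 0.430 CPM with gRNA_2 (log2 -1.34), against 1.37, 0.942 and 1.06 CPM with gRNA_Ctrl. Each library with a tested guide was below each gRNA_Ctrl library, and both comparisons share the gRNA_Ctrl libraries. The gRNA_2 call was lost without gRNA_2 replicate 1 (adjusted p = 0.052) and without gRNA_Ctrl replicate 1 (0.0993).

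The 2-hour LPS responses of RAW264.7 cells with gRNA_Ctrl and of wild-type dendritic cells came from separate libraries. Among 1077 copies tested in both, 72 rises were shared, 49.7% of the RAW264.7 list and 48.6% of the dendritic cell list, beside 51.5% and 46.7% over all repeat copies. Among subfamilies 12 rises were shared, 41.4% of both lists, beside 52.9% and 69.7% over all subfamilies. ERV3-16A3_I-int copy 639795 was among the shared copies, at 86.8, 92.0 and 83.6 CPM after LPS in RAW264.7 cells, against 32.9, 33.03 and 33.7 CPM before.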

How the data were processed

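RNA was DNase-treated and polyadenylated RNA was made into stranded libraries, per the labels' protocols. The submitters' processing notes name STAR, HOMER, DESeq2 and the mm10 genome, with no versions. The deposited tables hold raw read counts per gene and per repeat copy as the authors made them, and how reads that match several copies were assigned is not given in the sources used here.

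ERVL rows were summed by subfamily or kept as copies. Libraries were scaled by gene counts and TMM factors (0.721 to 1.26), and each experiment was fitted as 1 model with a term per group (edgeR 4.0.16 quasi-likelihood test, R 4.3.3, limma 3.58.1), over genes, over the subfamilies of all transposable elements or over copies with at least 10 counts in at least 3 libraries. A copy at or near 0 in some groups could pass this filter only through the others, so the filter favoured such differences. P-values were adjusted by Benjamini-Hochberg over all features of a fit, with a threshold of 0.05. SE is the log2 fold change divided by the square root of F. Totals and ratios were compared by two-sided exact permutation tests. The fits were tested on simulated data. Folds against groups at 0 use a floor of 3 counts over the group, which covers counting error only. No 2 libraries of a group agreed within sampling noise.

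The members and lists were chosen with earlier results of these data known. Named members were MERVL-int, MT2_Mm, the subfamilies and copies with most counts, and in each comparison up to 6 largest rises and falls past the threshold (subfamilies with a mean of at least 50 counts, copies with at least 0.5 CPM and no overlap). The most alike gene had the highest Pearson r of log CPM, a rule made for the 35 LPS libraries and extended to the other experiments. Groups of subfamilies were made by name. Cohort numbers pair samples in the Suv39h1 and Ifnar experiment, where the lowest correlation of same-numbered deviations was 0.268. In the other 2 not every such correlation was over 0.1 (lowest -0.264 and 0.00341), though their means were 0.332 and 0.123, against -0.0611 and -0.0613 between other numbers, and the samples were taken as unpaired. Alternatives were DESeq2 1.42.0, other scalings and filters, left-out libraries and copies, and the replicate block. Rows with a family named "ERVL?" (520 rows) were not used.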

Additional observations from a re-analysis of the deposited data

Results flagged for a closer look

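A single library stood apart from its group in 2 of 27 groups of values looked at, and chance gives about 1 such case in 20. MT2B2 was at 41.7 CPM in wild-type replicate 2 of the low-numbered set without LPS, where the nearest of the other 5 libraries was at 52.2 CPM. MT2A was at 73.0 CPM in wild-type replicate 1 of the low-numbered set after 2 hours, where the nearest of the other 4 was at 106 CPM.

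The 4-hour LPS response differed between MyD88KO and wild type for 7 named members (edgeR's quasi-likelihood test of the difference, adjusted over all features). On the log2 scale MyD88KO minus wild type was 0.68 for LTR33 (adjusted p = 0.0113), -1.04 for ERV3-16A3_I-int (0.033), -1.24 for MLT2B4 (0.00272), -1.39 for LTR53B (0.00951), 3.28 for MT2C_Mm copy 4306305 (0.000933), 2.59 for RLTR28 copy 698543 (0.000873) and -1.84 for MLT2B4 copy 1805251 (0.0296). When the 10 copies with most counts of each name were left out, none of the subfamilies was called, LTR53B could not be tested, and LTR33 (-0.0903) and ERV3-16A3_I-int (0.00724) turned. None of the 7 was called when wild type was limited to the library set that holds MyD88KO, with adjusted p between 0.0583 and 0.567. LTR33 was also lost without MyD88KO replicate 2 of the cells without LPS or replicate 3 at 4 hours, LTR53B without replicate 3 of the cells without LPS or replicate 1 at 4 hours, and ERV3-16A3_I-int and MLT2B4 copy 1805251 without any of several libraries of both genotypes.

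The 4-hour response differed between the libraries labelled TrifKO and wild type for 7 named subfamilies. The difference was 0.72 for ERVL-B4-int (adjusted p = 0.0283), -0.94 for MER21C (0.018), -0.99 for MT2_Mm (0.00795), -1.21 for LTR82A (0.0115), -1.22 for MER77 (0.000639), -1.26 for LTR16B (0.0138) and -1.33 for LTR67B (0.00365). Leaving out the 10 copies with most counts of each name ended every one of these calls, LTR16B could not be tested, and MER21C (0.0824) and MER77 (0.44) turned. From cohorts 1 and 2 alone MER77 and LTR67B were called and the other 5 were not, with adjusted p between 0.0621 and 0.131. MER21C was also lost without replicate 3 at 4 hours of the libraries labelled TrifKO (0.065).

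Among copies the 4-hour difference between the libraries labelled TrifKO and wild type was 3.64 for RMER10A copy 1294713 (adjusted p = 0.039), 1.93 for RMER10A copy 316437 (0.0457), 1.55 for MT2A copy 3657351 (0.0231) and 1.42 for MLT2F copy 1195949 (0.023). It was -3.80 for MLT2D copy 698628 (0.00151), -3.84 for MER21C copy 3532114 (0.0112), -3.91 for RMER15 copy 3309232 (0.00523), -5.13 for MT2B1 copy 1316764 (4.39e-07), -5.34 for MT2C_Mm copy 780197 (0.0227) and -6.73 for MLT2D copy 698668 (2.06e-05). At 2 hours it was -3.31 for LTR82A copy 3683959 (0.00587), -3.55 for RMER10B copy 1774348 (0.011), -3.73 for RMER10A copy 721714 (8.77e-06), -3.98 for MT2B1 copy 323614 (0.0281), -4.45 for RMER15 copy 3309232 (0.00545) and -4.77 for MT2B1 copy 1316764 (2.63e-05). From cohorts 1 and 2 alone the calls of both MLT2D copies, of RMER10A copy 721714 and of MT2B1 copy 1316764 at both times held and the others did not. RMER15 copy 3309232 was lost at both times without replicate 3 of the libraries labelled TrifKO without LPS (adjusted p = 0.146 at 2 hours and 0.143 at 4 hours).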

How the results depend on the processing

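Counts of called ERVL subfamilies and copies are given under each alternative, with the main count after "of" or "against" where it is repeated. The share called over all features is not set beside the counts of this section. They therefore do not show whether a shift was particular to ERVL or shared by all repeats. Without the 10 copies with most counts of each name, subfamily calls went to 0 of 35 in wild type at 2 hours and 16 of 65 at 4 hours, to 0 of 9 and 0 of 35 in MyD88KO, to 0 of 5 and 0 of 11 in the libraries labelled TrifKO, to 23 of 37 with gRNA_Ctrl and 25 of 44 with gRNA_1 after LPS, and to 0 in the remaining comparisons that had calls except gRNA_2 after LPS: the differences of responses (4, 1 and 13), Suv39h1KO (1) and both guides without LPS (1 and 4). The wild-type total at 2 hours was then 0.19. With libraries of the low-numbered set only, wild type had 10 subfamily calls at 2 hours and 174 and 497 copy calls at 2 and 4 hours, against 35, 618 and 846. With only the compared groups in the fit, subfamily calls were 21 in wild type at 2 hours, 15 in MyD88KO at 2 hours, 13 and 20 in the libraries labelled TrifKO, 0 for their 2-hour difference from wild type, and 2 for gRNA_1 without LPS. Cohorts 1 and 2 alone gave 7 subfamily calls in the libraries labelled TrifKO at 4 hours, 0 and 5 for their differences from wild type at 2 and 4 hours, and 50, 52, 5 and 16 copy calls. Wild-type libraries of the same set gave 0 subfamilies and 0 copies for MyD88KO minus wild type at 4 hours, 5 and 22 subfamilies for the libraries labelled TrifKO minus wild type, 1 copy for MyD88KO without LPS, and a total of -0.0152 for the libraries labelled TrifKO without LPS. With no filter on low counts the 2-hour difference of the libraries labelled TrifKO had 0 calls. DESeq2 called 7 subfamilies with gRNA_2 without LPS, and 5 copies in MyD88KO without LPS, 3 and 15 for MyD88KO minus wild type, 29 and 72 for the libraries labelled TrifKO minus wild type and 2 in IfnarKO. A minimum of 5 counts gave 2 copies in IfnarKO.

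The replicate block, where the cohort numbers pair samples, gave 3 and 1 subfamilies and 12 and 16 copies in Suv39h1KO and Suv39h1KO IfnarKO and 3 copies in IfnarKO. In the other experiments, where not every same-numbered pair of samples deviated together, the replicate block gave 20 subfamilies and 253 copies in MyD88KO at 2 hours, 12 and 18 subfamilies and 216 and 228 copies in the libraries labelled TrifKO, 1 and 11 subfamilies and 2 and 22 copies for MyD88KO minus wild type, 2 and 31 subfamilies and 37 and 105 copies for the libraries labelled TrifKO minus wild type, 4 copies with gRNA_1 and 7 subfamilies and 13 copies with gRNA_2 without LPS. In a linear model with the replicate block the totals of MyD88KO (0.25 and 0.44), of the libraries labelled TrifKO (0.22 and 0.23), of RAW264.7 cells after LPS (0.22, 0.23 and 0.27) and of gRNA_2 without LPS (-0.11) passed the threshold, and those of MyD88KO and the libraries labelled TrifKO without LPS were 0.00862 and -0.0525. The fit over families also called MyD88KO at 4 hours (0.44), RAW264.7 cells after LPS (0.22, 0.23 and 0.27) and gRNA_2 without LPS (-0.11).

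Scaled to the repeat table, subfamily calls were 9 in the libraries labelled TrifKO at 2 hours, 2 for their 2-hour difference, 1 in Suv39h1KO IfnarKO, 0 with gRNA_1 and 2 with gRNA_2 without LPS, and copy calls were 8 in Suv39h1KO IfnarKO. The ERVL total was then 0.0684 and 0.0336 in wild type at 2 and 4 hours, -0.0770, -0.0740 and -0.0731 after LPS with gRNA_Ctrl, gRNA_1 and gRNA_2, 0.00390 in MyD88KO and -0.0326 in the libraries labelled TrifKO without LPS, 0.0185 in Suv39h1KO, 0.0353 in Suv39h1KO IfnarKO and -0.0269 in IfnarKO. On that scale the subfamilies that turned were MT2A (-0.0532), MT2B2 (-0.11), RMER15 (-0.28) and MT2B (-0.30) in wild type at 4 hours, MT2A in MyD88KO at 4 hours (-0.0502), MT2_Mm (-0.0946) and MT2B (-0.12) with gRNA_Ctrl, RMER15 (-0.0325), MT2B2 (-0.0929) and MT2B (-0.11) with gRNA_1, and MT2B2 (-0.0022), MT2_Mm (-0.0492), RMER15 (-0.0579), MT2B (-0.14) and MT2A (-0.21) with gRNA_2. Without TMM the total was -0.00873 and -0.0431 in wild type and -0.0413 in the libraries labelled TrifKO at 2 hours.

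Without the 10 copies with most counts, the direction turned for MLT2B4 (-0.22), LTR33A (-0.17), LTR41B (0.0495) and ERVL-B4-int (0.10) in wild type at 2 hours. At 4 hours it turned for MLT2B4 (-0.0119), LTR33 (0.31), MLT2B5 (0.14), LTR41B (0.19) and ERVL-B4-int (0.0925). It turned for MLT2F (-0.0727) at 2 and ERVL-E-int (0.44) at 4 hours in MyD88KO, and for LTR33A (-0.47 and -0.29), MLT2B4 (-0.00454, 2 hours) and LTR33 (0.0259, 4 hours) in the libraries labelled TrifKO. The 4-hour differences became -0.0903 for LTR33 and 0.00724 for ERV3-16A3_I-int in MyD88KO and 0.0824 for MER21C and 0.44 for MER77 in the libraries labelled TrifKO. In RAW264.7 cells they became 0.44, 0.23 and 0.67 for MLT2B1 and -0.34, -0.21 and -0.54 for ERV3-16A3_I-int with gRNA_Ctrl, gRNA_1 and gRNA_2, and -0.0429 for MLT2C1 and -0.38 for MER74B with gRNA_1. Without the top copies of each family the ERVL to ERVK ratio of the libraries labelled TrifKO was -0.00777 and -0.00560.

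Leaving out single libraries gave 22 to 36 subfamily calls in MyD88KO at 4 hours, 4 to 7 in the libraries labelled TrifKO at 4 hours, 0 to 2 and 2 to 5 for MyD88KO minus wild type, 0 to 3 for the libraries labelled TrifKO minus wild type at 2 hours, 0 to 1 with gRNA_1 and 1 to 5 with gRNA_2 without LPS. Copy calls were 81 to 113 and 208 to 298 in MyD88KO, 52 to 87 and 54 to 83 in the libraries labelled TrifKO, 1 to 7 in MyD88KO without LPS, 8 to 32 and 23 to 51 for the libraries labelled TrifKO minus wild type, 2 to 5 in Suv39h1KO IfnarKO, 0 to 1 in IfnarKO, 1 to 4 with gRNA_1 and 3 to 7 with gRNA_2 without LPS. The totals ranged over 0.30 to 0.48 in wild type at 2 hours, -0.23 to -0.13 in MyD88KO without LPS, -0.16 to 0.0722 in Suv39h1KO and -0.0717 to 0.16 in IfnarKO, and the Suv39h1KO ratios over -0.0178 to 0.0180 for ERVL-MaLR, -0.0356 to 0.0426 for ERVK and -0.00747 to 0.0420 for ERV1. The cause of these shifts was not tested. Copies with few counts limit what could be tested, since 2758 of 118061 had enough.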
